A study of Mus musculus with 8 samples.

Results

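The 10 genes described here make up a signalling axis of the intestinal epithelium: the TGF-beta ligand Tgfb1 with its receptors Tgfbr1 and Tgfbr2, the BMP receptor Bmpr1a, the inhibitory Smads Smad6 and Smad7, the BMP target genes Id1, Id2 and Id3, and the hedgehog ligand Ihh. They were taken by name from the 23366 gene symbols of the deposited count tables. All 10 were found, and all 10 were among the 20427 genes that passed the filter on low counts. RNA was sequenced from epithelial cells of 6-week-old male mice that had been sorted for CD326 (Epcam) and then gated on CD44, with 50000 cells per library. The 4 groups were Sox4cKO CD44plus, control CD44plus, Sox4cKO CD44minus and control CD44minus, with 2 libraries in each. Sox4cKO mice carried Sox4fl/fl alleles and vilCre+/-, a Cre driven by the villin promoter that recombines the floxed Sox4 allele in the intestinal epithelium from before birth, and control littermates carried Sox4fl/fl alleles without Cre. The CD44plus gate enriches for crypt cells and the CD44minus gate for villus cells. Pairs of values below are in the order replicate 1 and replicate 2, and the libraries of both gates with the same genotype and number came from the same animal.

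BMP and TGF-beta ligands bind pairs of serine/threonine kinase receptors that phosphorylate Smad proteins, which enter the nucleus with Smad4 and change transcription. Smad6 and Smad7 block this step and are themselves induced by it, and the Id genes are among the most direct transcriptional targets of BMP signalling. In the gut, BMP activity is high in the villus and kept low at the crypt base, TGF-beta signalling restrains epithelial proliferation, and Ihh made by epithelial cells signals to the mesenchyme beneath, where its receptor Ptch1 and the Gli factors respond.

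The promoters of 5 members, spanning 250 bases before to 50 after the annotated start, are shown because they include genes from both sides of the gate comparison below. They are RefSeq sequences of the GRCm38.p6 build, given 5′ to 3′ on the strand of the gene. Capitals mark GGCGCC, the core of BMP-responsive elements, CAGAC or its reverse complement GTCTG, the Smad-binding element, and GTCTAGAC, the palindromic form of that element. The search covered both strands, and no 2 marked motifs overlap in these promoters.
Id2, chr12:25096043-25096342, minus strand: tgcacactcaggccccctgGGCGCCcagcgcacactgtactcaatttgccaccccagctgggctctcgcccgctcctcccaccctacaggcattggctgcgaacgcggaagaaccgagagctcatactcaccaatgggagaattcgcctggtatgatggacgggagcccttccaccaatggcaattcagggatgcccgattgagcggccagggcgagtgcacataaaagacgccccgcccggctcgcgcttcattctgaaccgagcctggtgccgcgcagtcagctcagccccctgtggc
Id3, chr4:136143572-136143871, plus strand: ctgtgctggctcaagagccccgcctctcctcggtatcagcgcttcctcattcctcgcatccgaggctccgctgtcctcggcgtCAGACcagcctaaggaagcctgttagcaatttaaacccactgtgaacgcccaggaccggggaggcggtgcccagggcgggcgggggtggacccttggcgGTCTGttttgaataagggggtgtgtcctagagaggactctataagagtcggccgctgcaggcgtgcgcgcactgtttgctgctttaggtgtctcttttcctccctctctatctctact
Smad6, chr9:64022010-64022309, minus strand: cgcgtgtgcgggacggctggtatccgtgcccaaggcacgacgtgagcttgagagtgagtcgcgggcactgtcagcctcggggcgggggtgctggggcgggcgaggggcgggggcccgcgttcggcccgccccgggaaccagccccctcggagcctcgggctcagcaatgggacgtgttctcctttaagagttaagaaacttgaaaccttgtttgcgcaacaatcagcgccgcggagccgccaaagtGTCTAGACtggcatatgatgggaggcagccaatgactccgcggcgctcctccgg
Tgfbr2, chr9:116175314-116175613, minus strand: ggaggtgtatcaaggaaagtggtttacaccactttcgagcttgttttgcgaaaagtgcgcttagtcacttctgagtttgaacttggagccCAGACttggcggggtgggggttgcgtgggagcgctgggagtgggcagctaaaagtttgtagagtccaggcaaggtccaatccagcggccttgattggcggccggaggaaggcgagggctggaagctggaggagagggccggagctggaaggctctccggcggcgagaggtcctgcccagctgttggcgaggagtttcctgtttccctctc
Ihh, chr1:74951623-74951922, minus strand: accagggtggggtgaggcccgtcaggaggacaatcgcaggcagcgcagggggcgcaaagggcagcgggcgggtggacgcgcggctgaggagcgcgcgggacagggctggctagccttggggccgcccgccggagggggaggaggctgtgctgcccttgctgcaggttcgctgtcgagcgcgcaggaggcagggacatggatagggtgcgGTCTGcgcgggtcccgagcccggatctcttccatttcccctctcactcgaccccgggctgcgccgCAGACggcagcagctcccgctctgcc
The palindrome GTCTAGAC was present once in the Smad6 promoter, and 0.213% of 32851 mouse promoters of the same length hold it. GGCGCC occurred once in the Id2 promoter, against 11.9% of all promoters with at least 1 copy. Among the matched members not shown, it also occurred once in the promoter of Bmpr1a and in 1 of the 2 of Tgfbr1. The Tgfb1 promoter held none of the marked motifs. CAGAC occurred 2 times in the promoters of Id3 and Ihh and once in that of Tgfbr2, and 49.6% of all promoters hold it. The Gli motif TGGGTGGTC, which 0.253% of all promoters hold, was not found in these 5 windows. Such matches describe the letters of these windows only.

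Gene counts per library were 7679575 and 13238050 in Sox4cKO CD44plus, 12249272 and 6007554 in control CD44plus, 1175251 and 6963345 in Sox4cKO CD44minus and 886194 and 2327002 in control CD44minus. Sox4 had 123 and 271 reads in Sox4cKO CD44plus and 1438 and 658 reads in control CD44plus, which checks the labels of that gate. It had 4 and 1 reads in Sox4cKO CD44minus and 10 and 21 reads in control CD44minus. The level of background was read from the olfactory and vomeronasal receptor genes. This assumes that most of them are silent in the gut lining, which was not tested. In CPM, which divide the reads of a gene by the total of its library and bring all libraries to the same scale, these genes took 69.3 to 359 CPM in the CD44plus libraries and 185 to 4121 CPM in the CD44minus libraries. Sox4cKO CD44minus replicate 2 stood apart from the other CD44minus libraries: it held the 185, against 1359 to 4121 in the other 3, and its scaling factor by trimmed mean of M values (TMM) was 0.527 against 1.09 to 1.72. Reads that background would give to a gene were predicted from its exon length. The summed density over the coding sequence of the receptor genes, chosen after the data were seen, was 0.824 to 3.09 reads per kilobase in CD44minus, and the median density over their exons was 0 to 0.648. Predicted shares are several times lower with the median, and are given at the summed density where none is named. The summed density divides by coding length but is applied to whole exon length, so it can predict too much. Pooled over the whole exons of the receptor genes, the density was 0.241 to 0.904 reads per kilobase in CD44minus. For Sox4 in Sox4cKO CD44minus the summed density over coding sequence predicted 14.8 and 3.95 reads, where 4 and 1 were seen. CPM below is scaled by the TMM factors unless library totals are named. Scaling by library totals alone moved the median log2 fold change of all genes by −0.45 (gate comparison in Sox4cKO), −0.59 (gate comparison in control), −0.28 (genotype comparison in CD44minus) and −0.10 (genotype comparison in CD44plus). Cd44 followed the gates, at 203 and 327 CPM in Sox4cKO CD44plus and 246 and 270.1 CPM in control CD44plus, against 27.2 and 5.72 CPM in Sox4cKO CD44minus and 23.6 and 16.1 CPM in control CD44minus. The crypt stem cell marker Lgr5 did too, with 41.1 to 99.7 CPM in CD44plus and 3.54 to 17.5 CPM in CD44minus. Background at the summed density would give 65.0% to 96.1% of its CD44minus reads. Of the 10 crypt markers, 8 had positive log2 fold changes in each genotype, of which 3 were called in Sox4cKO and 4 in control. These 10 include Cd44, the antigen of the sort, so its part in that count was set by the gating. The summed level of the 10 did not separate the gates, at 10081 to 11497 CPM in CD44plus and 4397 to 23879 CPM in CD44minus. The CD44plus libraries also held immune markers, with the 10 T cell and intraepithelial lymphocyte markers summing to 2067 to 5450.3 CPM there against 167 to 862 CPM in CD44minus, and Epcam at 1187 to 1402 CPM in CD44plus and 473 to 2793 CPM in CD44minus.

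The TGF-beta ligand and its receptors had more RNA in the crypt-enriched CD44plus gate than in the CD44minus gate in all 4 animals, under TMM and under library totals. A gene was called when its adjusted p in edgeR's quasi-likelihood test was under 0.05. In Sox4cKO 1 of the 10 members was called between gates, Tgfb1, where 2.59% of all genes tested were called. In control 1 of the 10 was called, Tgfbr1, where 2.46% were called. Of the called genes, 64.1% were higher in CD44plus in Sox4cKO and 81.9% in control, and with DESeq2 size factors these shares were 51.3% and 68.6%. The split turned with the method: it was 40.8% and 51.8% with DESeq2, 53.3% and 43.5% with the animal as a block in limma-voom, and 47.1% and 41.2% with a term per animal in edgeR.

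Tgfb1 (GRCm38 chr7:25687002-25705077, plus strand, 8 exonic blocks) encodes the secreted TGF-beta ligand. It read 41.5 and 104 CPM in Sox4cKO CD44plus and 26.0 and 40.2 CPM in control CD44plus, against 11.4 and 2.45 CPM in Sox4cKO CD44minus and 9.43 and 10.2 CPM in control CD44minus. Every CD44plus library was above every CD44minus library. Tgfb1 rose in CD44plus over CD44minus in Sox4cKO by 3.46 on the log2 scale (SE 0.73, edgeR adjusted p = 0.0204). In control the log2 fold change was 1.74 (SE 0.69, edgeR adjusted p = 0.16). The Sox4cKO value rests on 23 and 9 reads in CD44minus, of which background would give 67.8% and 46.1% at the summed density and 14.2% and 0% at the median density. Without Sox4cKO CD44plus replicate 2 the log2 fold change was 2.65 and the call was lost (edgeR adjusted p = 0.338), and with library totals it was 2.71 (edgeR adjusted p = 0.166).

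Tgfbr1 (chr4:47353222-47414931, plus strand) encodes the type I receptor kinase. It read 48.7 and 107 CPM in Sox4cKO CD44plus and 64.4 and 62.1 CPM in control CD44plus, against 19.8 and 23.7 CPM in Sox4cKO CD44minus and 11.5 and 11.8 CPM in control CD44minus. The gates did not overlap in either genotype. Tgfbr1 rose in CD44plus over CD44minus in control by 2.44 on the log2 scale (SE 0.61, edgeR adjusted p = 0.0422), and in Sox4cKO its log2 fold change was 1.84 (SE 0.58, edgeR adjusted p = 0.105). In control CD44minus the gene had 17 and 30 reads, of which background would give 78.8% and 44.1% at the summed density and 15.4% and 6.90% at the median density. With library totals the control value was 1.88 (edgeR adjusted p = 0.0654), and the call was also lost without any 1 of the 4 control libraries (edgeR adjusted p between 0.274 and 0.389) and without Sox4cKO CD44plus replicate 2 (edgeR adjusted p = 0.0618).

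Tgfbr2 (chr9:116084293-116175360, minus strand) encodes the type II receptor that binds the ligand first. It read 102 and 191 CPM in Sox4cKO CD44plus and 97.3 and 119.6 CPM in control CD44plus, against 25.3 and 43.9 CPM in Sox4cKO CD44minus and 19.5 and 19.7 CPM in control CD44minus. The gates did not overlap, and the log2 fold change of CD44plus over CD44minus was 2.08 in Sox4cKO (SE 0.66, edgeR adjusted p = 0.105) and 2.47 in control (SE 0.67, edgeR adjusted p = 0.0607). Predicted background at the summed density made up 49.6% and 4.19% of its reads in Sox4cKO CD44minus and 57.9% and 33.2% in control CD44minus, and at the median density 11.3% or less.

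These 3 genes moved between gates together with the immune markers. In Sox4cKO CD44plus the T cell and intraepithelial lymphocyte markers summed to 2229.9 and 5450.3 CPM and in control CD44plus to 2067 and 3230.3 CPM, against 173 and 862 CPM in Sox4cKO CD44minus and 167 and 271 CPM in control CD44minus. The 5 mast cell markers summed to 3391 and 16793 CPM in Sox4cKO CD44plus and 1648 and 2819.9 CPM in control CD44plus, against 42.6 and 8.45 CPM in Sox4cKO CD44minus and 38.4 and 14.5 CPM in control CD44minus. The 10 B, plasma and myeloid cell markers in the tables summed to 198 to 792 CPM over the CD44plus libraries and to 66.8 to 109 CPM over the CD44minus libraries. Of these 3 lists, the mast cell gene Cma1 was at 0 in control CD44plus replicate 2 and no other marker was at 0 in any library. The part of immune cells in the Tgfb1, Tgfbr1 and Tgfbr2 values was not tested. In sorted bulk libraries such as these, fewer cells of a type and less RNA per cell cannot be told apart.

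**Figure D1:**
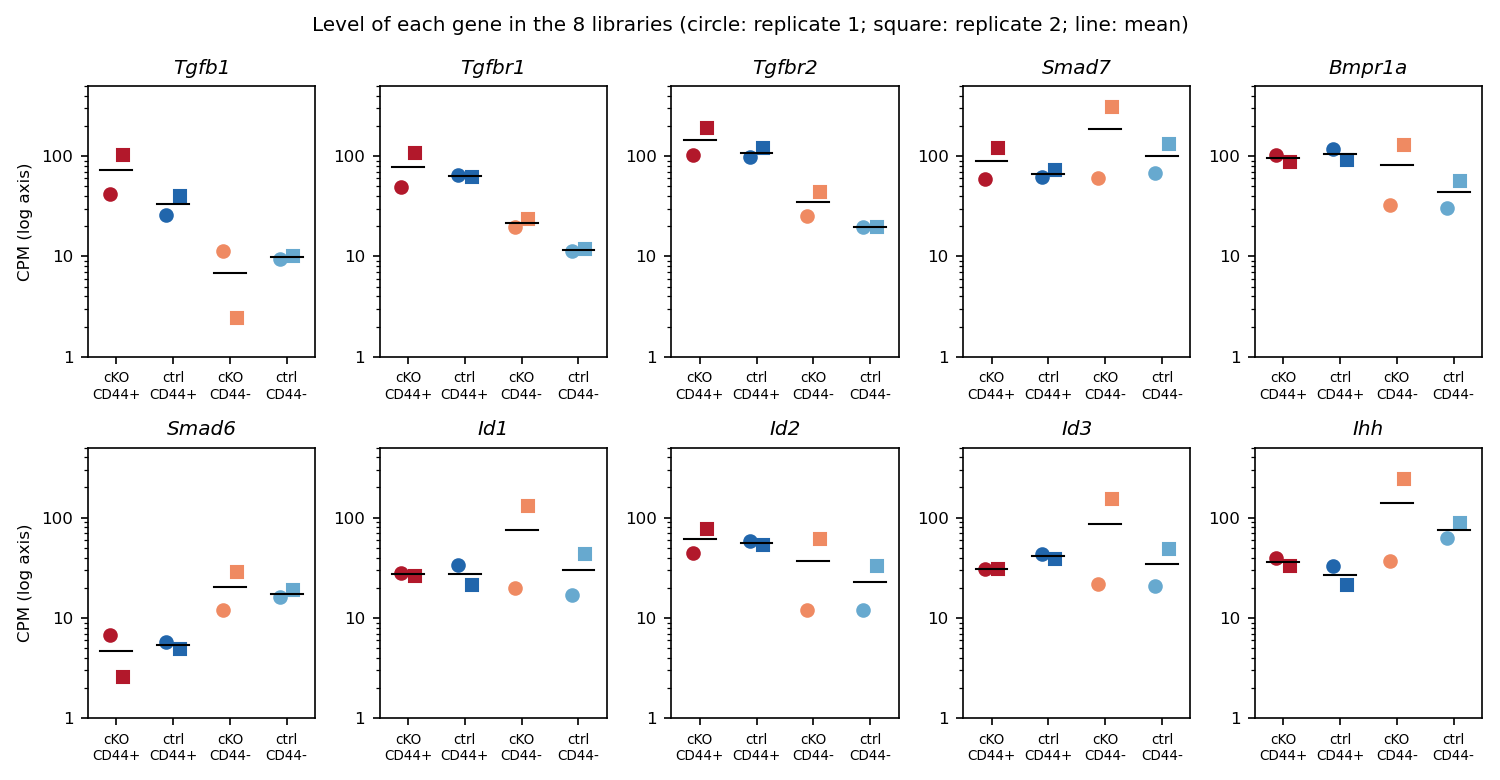
Level of each of the 10 genes (CPM, TMM-scaled, log axis) in the 8 libraries, by group, with Sox4cKO to the left of control in each gate; points are libraries and lines are group means. Tgfb1, Tgfbr1 and Tgfbr2 lie higher in every CD44plus library than in any CD44minus library, Smad6 lies lower, and Sox4cKO CD44minus replicate 2 is the highest library for Id1, Id3, Bmpr1a, Smad6, Smad7 and Ihh.

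The inhibitory Smads had negative log2 fold changes between gates, and neither was called. Smad6 (chr9:63953076-64022059, minus strand), an inhibitor that acts mainly on BMP signalling, read 6.80 and 2.56 CPM in Sox4cKO CD44plus and 5.72 and 4.93 CPM in control CD44plus, against 11.9 and 28.6 CPM in Sox4cKO CD44minus and 16.2 and 18.9 CPM in control CD44minus. Every CD44plus library was below every CD44minus library. The log2 fold change of CD44plus over CD44minus was −2.13 in Sox4cKO (SE 0.77, edgeR adjusted p = 0.161) and −1.71 in control (SE 0.76, edgeR adjusted p = 0.195), neither past the threshold. With the gates paired by animal, Smad6 was called in Sox4cKO, at −2.39 with limma-voom (adjusted p = 0.0311) and −2.16 with a term per animal in edgeR (adjusted p = 0.0472), and DESeq2 called it too (−2.31, adjusted p = 0.0391), but in control none of the 3 did (adjusted p = 0.0697, 0.0636 and 0.0667). These values rest on 27 to 64 reads in CD44plus and 24 to 105 reads in CD44minus. Predicted background was 6.90% to 12.3% of the reads in CD44plus, 41.3% and 2.51% in Sox4cKO CD44minus and 27.4% and 13.5% in control CD44minus.

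Smad7 (chr18:75367529-75395935, plus strand) inhibits both TGF-beta and BMP receptors. It read 59.6 and 121 CPM in Sox4cKO CD44plus and 61.4 and 72.7 CPM in control CD44plus, against 59.9 and 312 CPM in Sox4cKO CD44minus and 68.0 and 133 CPM in control CD44minus. In each of the 4 animals the CD44plus library was below its CD44minus partner, by as little as 59.6 against 59.9 CPM in Sox4cKO replicate 1. The gates overlapped under TMM in both genotypes and separated in both under library totals, with 53.6 and 96.7 CPM in Sox4cKO CD44plus against 103 and 164 CPM in Sox4cKO CD44minus. The log2 fold change was −1.04 in Sox4cKO (SE 0.79, edgeR adjusted p = 0.461) and −0.59 in control (SE 0.79, edgeR adjusted p = 0.601). Without Sox4cKO CD44minus replicate 2 the Sox4cKO value was 0.60.

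Bmpr1a (chr14:34410734-34503341, minus strand) encodes the type I BMP receptor whose loss in the gut is known to give crypt overgrowth. It read 103 and 86.8 CPM in Sox4cKO CD44plus and 118 and 92.2 CPM in control CD44plus, against 32.7 and 129 CPM in Sox4cKO CD44minus and 30.3 and 57.0 CPM in control CD44minus. In control both CD44plus libraries were above both CD44minus libraries, whereas in Sox4cKO the gates overlapped under TMM. The log2 fold change of CD44plus over CD44minus was 0.23 in Sox4cKO (SE 0.70, edgeR adjusted p = 0.858) and 1.26 in control (SE 0.71, edgeR adjusted p = 0.269). A share of 4.57% of its exonic bases, 290 bases, lies opposite the antisense gene Gm17110, and whether counting used strand is not given in the sources used here.

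The 3 Id genes encode helix-loop-helix proteins that bind E proteins and keep them off DNA. Id1 (chr2:152736251-152737410, plus strand) read 28.2 and 26.2 CPM in Sox4cKO CD44plus and 33.5 and 21.6 CPM in control CD44plus, against 19.8 and 131 CPM in Sox4cKO CD44minus and 16.8 and 43.6 CPM in control CD44minus. Id3 (chr4:136143497-136145755, plus strand) read 30.5 and 30.7 CPM in Sox4cKO CD44plus and 43.5 and 38.7 CPM in control CD44plus, against 21.8 and 153 CPM in Sox4cKO CD44minus and 20.9 and 48.7 CPM in control CD44minus. For both genes the CD44minus libraries spanned the CD44plus ones, with replicate 1 below and replicate 2 above them in both genotypes. Id2 (chr12:25093799-25097140, minus strand) read 44.1 and 77.8 CPM in Sox4cKO CD44plus and 58.8 and 53.9 CPM in control CD44plus, against 11.9 and 61.8 CPM in Sox4cKO CD44minus and 12.1 and 33.0 CPM in control CD44minus. Unlike those of Id1 and Id3, the Id2 level was higher in the CD44plus library of all 4 animals, under TMM and under library totals. The log2 fold changes in Sox4cKO were −1.47 for Id1 (SE 0.72), −1.52 for Id3 (SE 0.73) and 0.71 for Id2 (SE 0.70), with edgeR adjusted p = 0.296, 0.288 and 0.559. In control they were −0.15 for Id1 (SE 0.72), 0.23 for Id3 (SE 0.72; −0.25 under library totals) and 1.30 for Id2 (SE 0.71), with edgeR adjusted p = 0.888, 0.827 and 0.259.

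Ihh (chr1:74945315-74951672, minus strand), the epithelial hedgehog ligand, read 39.3 and 33.2 CPM in Sox4cKO CD44plus and 32.8 and 21.2 CPM in control CD44plus, against 37.1 and 244 CPM in Sox4cKO CD44minus and 62.0 and 88.1 CPM in control CD44minus. Both control CD44plus libraries were below both control CD44minus libraries. In Sox4cKO the gates overlapped under TMM, where replicate 1 had 39.3 CPM in CD44plus and 37.1 in CD44minus, and separated under library totals, with 35.4 and 26.4 CPM in CD44plus and 63.8 and 129 CPM in CD44minus. The log2 fold change of CD44plus over CD44minus was −1.96 in Sox4cKO (SE 0.76, edgeR adjusted p = 0.193) and −1.47 in control (SE 0.75, edgeR adjusted p = 0.236). Predicted background was at most 12.6% of Ihh reads in any library. The villus enterocyte markers lay on the same side of the gates, with the 10 genes summing to 2222 and 1741 CPM in Sox4cKO CD44plus and 2082 and 1709 CPM in control CD44plus, against 11649 and 59862 CPM in Sox4cKO CD44minus and 14100.3 and 27836 CPM in control CD44minus.

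**Figure D2:**
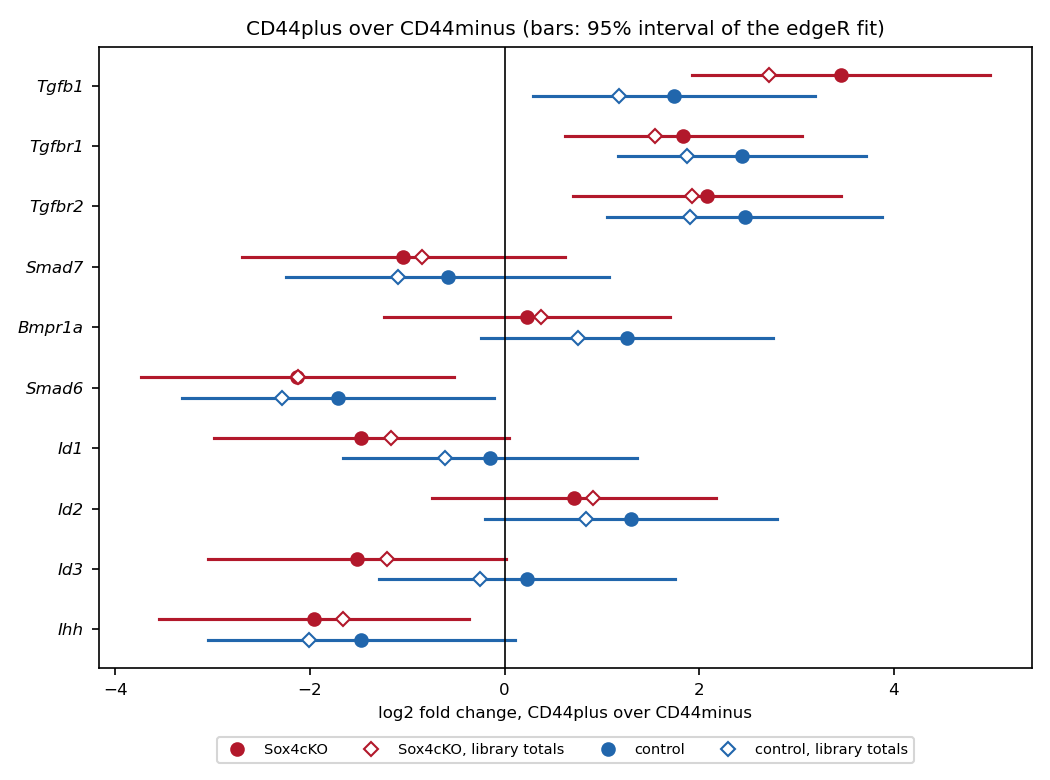
Log2 fold change of CD44plus over CD44minus for the 10 genes, Sox4cKO above control in each row; filled points are the edgeR values with 95% intervals and open diamonds are the values with library totals only. Tgfb1, Tgfbr1 and Tgfbr2 lie right of 0 and Smad6, Smad7 and Ihh left of 0 in both genotypes and under both scalings, and the sign for Id3 in control differs between the scalings.

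Under library totals both CD44plus libraries of Sox4cKO were above both CD44minus libraries for Id2, Bmpr1a, Tgfbr1, Tgfbr2 and Tgfb1 and below them for Id1, Id3, Smad6, Smad7 and Ihh, so that 10 of 10 members did not overlap, against 39.1% of all genes tested. In control 8 of 10 did not overlap under library totals, the same genes without Id1 and Id3, against 76.9% of all genes. Under TMM the counts were 4 of 10 in Sox4cKO, against 37.3% of all genes, and 7 of 10 in control, against 79.7%. With the animal as a block, 3 members were called in Sox4cKO with limma-voom (Tgfb1 and Tgfbr2 higher in CD44plus, Smad6 lower; 5.41% of all genes called) and 2 with a term per animal in edgeR (Tgfb1 and Smad6; 8.38%). In control the block gave 2 members, Tgfbr1 and Tgfbr2, with either tool, against 10.7% of all genes with limma-voom and 17.9% with edgeR. The 4 control libraries fitted alone gave 7 members called, with Id2, Bmpr1a, Tgfbr1, Tgfbr2 and Tgfb1 higher in CD44plus and Smad6 and Ihh lower, against 54.9% of all genes. The same 7 were called in control when Sox4cKO CD44minus replicate 1 or replicate 2 was left out of the joint fit, against 36.4% and 34.6% of all genes. In Sox4cKO itself 8 members were called without replicate 1, against 16.7% of all genes, and 5 without replicate 2, against 40.9%, while the 4 Sox4cKO libraries alone gave 0 calls (0%). With library totals 2 members were called in Sox4cKO, against 9.98% of all genes, and 2 in control, against 10.2%. DESeq2 called 4 members between gates in Sox4cKO, against 8.64% of all genes, and 2 in control, against 10.8%.

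Ratios within a library do not depend on scaling, and 2 pairs are given that were chosen after their values were seen. For each read of Id2, Id1 had 0.639 and 0.337 reads in Sox4cKO CD44plus and 0.570 and 0.400 in control CD44plus, against 1.67 and 2.11 in Sox4cKO CD44minus and 1.39 and 1.32 in control CD44minus. Tgfbr2 had 2.59 and 5.76 reads for each read of Ihh in Sox4cKO CD44plus and 2.97 and 5.65 in control CD44plus, against 0.680 and 0.180 in Sox4cKO CD44minus and 0.315 and 0.223 in control CD44minus. Both ratios separated the gates in all 4 animals without overlap, and neither separated the genotypes within CD44plus. Within CD44minus the Id1 to Id2 ratio did not overlap between genotypes and was higher in Sox4cKO, whereas the Tgfbr2 to Ihh ratio overlapped. The replicate 1 values of Id1 to Id2 there rest on 40 and 24 reads in Sox4cKO and 25 and 18 in control. Predicted background was 31.4% and 27.8% of these Id2 reads. How often other pairs of genes separate in this way was not tested. Id3 kept close to Id1, at 1.08 to 1.80 reads for each Id1 read over the 8 libraries.

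**Figure D3:**
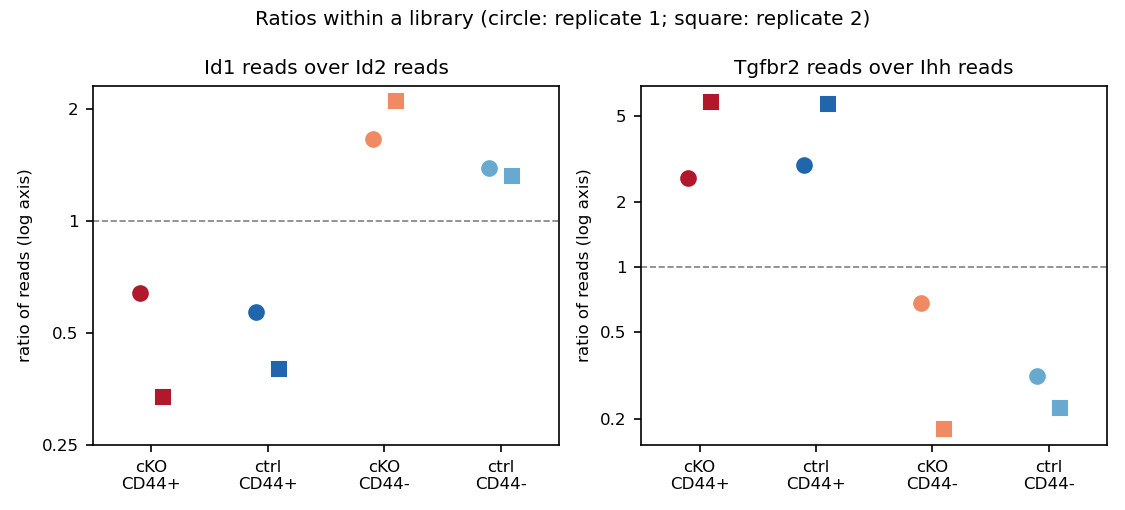
Reads of Id1 over reads of Id2 (left) and of Tgfbr2 over Ihh (right) in each library, on log axes, with Sox4cKO left of control in each gate. The Id1 to Id2 ratio is 0.337 to 0.639 in CD44plus and 1.32 to 2.11 in CD44minus, and the Tgfbr2 to Ihh ratio is 2.59 to 5.76 in CD44plus and 0.180 to 0.680 in CD44minus.

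Between genotypes no member was called in either gate. Sox4, the deleted gene itself, was not called either. Its log2 fold change was −2.51 in CD44plus (SE 0.61, edgeR unadjusted p = 0.00064) and −2.95 in CD44minus (SE 0.83, edgeR unadjusted p = 0.0022). In CD44plus 0 of 10 were called by edgeR, as were 0% of the 20427 genes tested, with 37 genes higher and 91 lower in Sox4cKO at an unadjusted p under 0.05, none of them a member, and DESeq2 called 0 genes too. The 4 CD44plus libraries fitted alone called 17 genes, all lower in Sox4cKO and none a member (0.0997% of 17052). The coefficient of variation between replicates was 0.335 in these 4 libraries and 0.616 in the joint fit of all 8. In simulated counts with that joint spread the fit called few of the genes given a large change. A missed threshold in the joint fit therefore says little. No simulation used the spread of these 4 libraries, so it does not bear on their separate fit. Tgfb1 was the member farthest from 0, at 41.5 and 104 CPM in Sox4cKO CD44plus and 26.0 and 40.2 CPM in control CD44plus, a log2 fold change of 1.14 (SE 0.64, edgeR unadjusted p = 0.0926, adjusted p = 1). Without Sox4cKO CD44plus replicate 2 this value was 0.33. That library also held the highest sums of the mast cell (16793 CPM) and T cell markers (5450.3 CPM), and the part of these cells was not tested. The other log2 fold changes in CD44plus were 0.43 for Tgfbr2, Smad7 and, at 0.42, Ihh, 0.30 for Tgfbr1, 0.11 for Id2, −0.02 for Id1, −0.14 for Bmpr1a, −0.20 for Smad6 and −0.43 for Id3, with SE 0.55 to 0.78. Under TMM the genotypes did not overlap for 3 of the 10 members, against 30.5% of all genes tested: Tgfb1 and Ihh, higher in Sox4cKO, and Id3, with 30.5 and 30.7 CPM in Sox4cKO CD44plus and 43.5 and 38.7 CPM in control CD44plus. Ihh had 39.3 and 33.2 CPM in Sox4cKO CD44plus and 32.8 and 21.2 CPM in control CD44plus, and overlapped under library totals, where 2 of the 10 did not overlap, against 32.0% of all genes. The 95% intervals were wide: for Id1 −1.51 to 1.47 and for Bmpr1a −1.61 to 1.32, so that changes of more than 2-fold in either direction could not be told from none.

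In CD44minus 0 of 10 members were called by edgeR between genotypes, as were 0% of all genes, with 109 genes higher and 7 lower in Sox4cKO at an unadjusted p under 0.05, none of them a member, and DESeq2 called 0 genes. The log2 fold changes of Sox4cKO over control were positive for 9 of 10 members, against 57.5% of all genes, at 1.32 for Id3 (SE 0.73), 1.31 for Id1 (SE 0.73), 0.82 to 0.91 for Tgfbr1, Tgfbr2, Smad7, Bmpr1a and Ihh, 0.70 for Id2 and 0.22 for Smad6, and −0.58 for Tgfb1. These values turned on the 2 Sox4cKO libraries. Id1 read 19.8 and 131 CPM in Sox4cKO CD44minus and 16.8 and 43.6 CPM in control CD44minus, and Ihh 37.1 and 244 CPM in Sox4cKO CD44minus and 62.0 and 88.1 CPM in control CD44minus. Without Sox4cKO CD44minus replicate 2 the log2 fold change of Id1 was −0.65 and that of Ihh −1.03, and 0 members were called. Without replicate 1 the values were 2.05 and 1.68, and 8 members were called, against 37.6% of all genes. Under library totals, where replicate 2 is not scaled up, Ihh read 63.8 and 129 CPM in Sox4cKO CD44minus and 104 and 96.3 CPM in control CD44minus. Under TMM 2 of the 10 members did not overlap between genotypes, Tgfbr1 and Tgfbr2, both higher in Sox4cKO, against 12.5% of all genes tested. Under library totals 1 of the 10 did not overlap, Smad6, lower in Sox4cKO, against 11.3% of all genes.

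**Figure D4:**
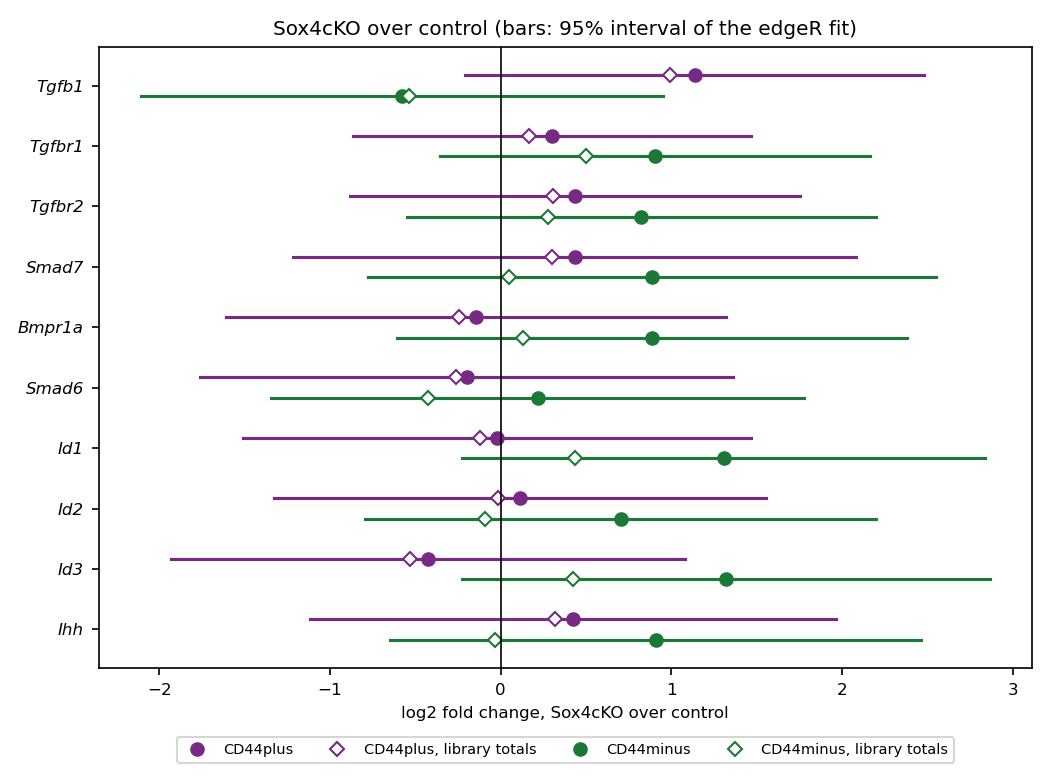
Log2 fold change of Sox4cKO over control for the 10 genes, with the CD44plus gate above the CD44minus gate in each row; filled points are the edgeR values with 95% intervals and open diamonds are the values with library totals only. All 20 intervals include 0, and Tgfb1 in CD44plus (1.14) and Id3 and Id1 in CD44minus (1.32 and 1.31) lie farthest from it.

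Whether the effect of genotype differed between the 2 gates was tested as an interaction in the same model. No member was called by edgeR, nor any other gene (0%), with 19 genes above and 31 below 0 at an unadjusted p under 0.05 and 0 called by DESeq2. The largest differences among the members, genotype effect in CD44plus minus that in CD44minus, were −1.75 for Id3 (SE 1.02, edgeR adjusted p = 1) and 1.71 for Tgfb1 (SE 0.97, edgeR adjusted p = 1). Tgfb1 was above both control values in both Sox4cKO libraries of CD44plus, whereas in CD44minus only Sox4cKO replicate 2 was below the control values.

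Per kilobase of exon, the members ranked differently in the 2 gates. In control CD44plus Id1, Id2 and Id3 led with 23.7 ± 7.29, 23.1 ± 1.43 and 23.0 ± 1.89 CPM per kilobase (SD, n = 2), which did not differ beyond their spread, and in Sox4cKO CD44plus Id2, with 18.1 and 31.9 CPM per kilobase, and Id1, with 24.3 and 22.6, led and overlapped. Bmpr1a, Smad7 and Tgfbr2 followed at 13.2 to 16.5 CPM per kilobase in control CD44plus, again within their spread, and Smad6 was last in that gate at 1.46 ± 0.935 in Sox4cKO and 1.66 ± 0.174 in control. In control CD44minus Id1 (26.1 ± 16.3), Ihh (24.6 ± 6.05), Smad7 (22.2 ± 10.1) and Id3 (11.7 and 27.2 in the 2 libraries) led without differing beyond their spread, and Tgfbr2 (2.39 ± 0.0105), Tgfb1 (1.95 ± 0.111) and Tgfbr1 (1.78 ± 0.0371) closed the list. Sox4cKO CD44minus had Id1, Id3, Ihh and Smad7 at the top and Tgfbr2, Tgfbr1 and Tgfb1 at the bottom too, with SDs as large as the means for the leading 3.

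A wider list of 79 further pathway genes put these members in context. None of the 79 was called between gates in Sox4cKO and 1 in control, Rgmb, a membrane co-receptor for BMPs. Rgmb read 112 and 112 CPM in Sox4cKO CD44plus and 137 and 154 CPM in control CD44plus, against 10.4 and 45.5 CPM in Sox4cKO CD44minus and 8.76 and 18.1 CPM in control CD44minus. It rose in control by 3.42 on the log2 scale (SE 0.78, edgeR adjusted p = 0.0287), and its log2 fold change in Sox4cKO was 1.98 (SE 0.72, edgeR adjusted p = 0.166). Its CD44minus counts were 21 and 167 reads in Sox4cKO, where background would give 23.7 and 6.32, and 13 and 46 reads in control, where background would give 15.7 and 15.5, and at the median density 4.97 and 0 in Sox4cKO and 3.07 and 2.43 in control. With the animal as a block, 2 of the 79 were called in Sox4cKO with limma-voom and 3 with edgeR, and 9 and 11 in control, against the shares of all genes given above for these fits.

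Of the 8 BMP ligands none was called. Bmp3, a ligand known to oppose other BMPs, read 40.5 and 27.2 CPM in Sox4cKO CD44plus and 60.8 and 44.0 CPM in control CD44plus, against 29.2 and 98.1 CPM in Sox4cKO CD44minus and 32.3 and 26.7 CPM in control CD44minus. It was higher in CD44plus in 3 of 4 animals under TMM and in 2 under library totals, and Bmp8a in 1 and 0. Bmp7 was higher in CD44plus in all 4 animals, and Bmp2 was lower in all 4, as were Bmp4 and Bmp8b. Bmp5 was lower in 3 of 4 animals. In the other, Sox4cKO replicate 2, it had no read in CD44minus but was detected in CD44plus. Bmp4, Bmp5 and Bmp8b had at most 18 reads in any library and are named after their values were seen. Bmp2, a ligand of the villus, read 7.23 and 5.21 CPM in Sox4cKO CD44plus and 4.02 and 2.56 CPM in control CD44plus, against 16.3 and 30.0 CPM in Sox4cKO CD44minus and 9.43 and 12.2 CPM in control CD44minus. Of 13 signal transducers and their inhibitors, 8 had a positive log2 fold change in Sox4cKO and 12 in control, none called. Of all genes tested, 39.8% and 47.2% were positive. The medians of the 13 were 0.07 and 0.74, against −0.48 and −0.19 for all genes. The medians of all genes depend on the setting: with background subtracted at the summed density they were 0.17 and 0.10. The medians of the 13 under that setting are not given here. Smad4, the shared partner of the receptor-activated Smads, read 139 and 132 CPM in Sox4cKO CD44plus and 151 and 141 CPM in control CD44plus, against 65.4 and 245 CPM in Sox4cKO CD44minus and 48.5 and 97.1 CPM in control CD44minus. Among known TGF-beta targets, Tgfbi, a secreted matrix protein, and Cdkn2b, a cell cycle inhibitor, were lower in CD44plus in all 4 animals. Tgfbi read 64.6 and 55.4 CPM in Sox4cKO CD44plus and 51.5 and 46.0 CPM in control CD44plus, against 155 and 855 CPM in Sox4cKO CD44minus and 154 and 359 CPM in control CD44minus. The log2 fold changes were −3.07 for Tgfbi and −2.42 for Cdkn2b in Sox4cKO and −2.39 and −2.03 in control, with edgeR adjusted p = 0.0903, 0.128, 0.147 and 0.16. Tgfbi and Cdkn2b were thus on the side of Ihh and Smad6, and Pmepa1, a target that dampens TGF-beta signalling, was higher in CD44plus in all 4 animals under TMM and in 2 under library totals.

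Among the 16 hedgehog genes is the hedgehog receptor Ptch1. It read 32.8 and 48.2 CPM in Sox4cKO CD44plus and 50.5 and 46.6 CPM in control CD44plus, against 11.9 and 14.2 CPM in Sox4cKO CD44minus and 14.1 and 13.4 CPM in control CD44minus. It was higher in CD44plus in all 4 animals, on the opposite side of its ligand Ihh, with log2 fold changes of 1.63 in Sox4cKO (SE 0.54, edgeR adjusted p = 0.12) and 1.82 in control (SE 0.54, edgeR adjusted p = 0.0804). Of its CD44minus reads, background would give 43.8 and 11.7 reads where 24 and 52 were seen in Sox4cKO, and 29.1 and 28.7 where 21 and 34 were seen in control, so that 2 of the 4 CD44minus values of Ptch1 lay under that level. The summed density used for that level can predict too much. At the median density background would give 9.19 and 0 reads in Sox4cKO and 5.68 and 4.49 in control. Stromal and endothelial markers, 13 genes, summed to 211 and 493 CPM in Sox4cKO CD44plus and 219.9 and 292 CPM in control CD44plus, against 231 and 48.0 CPM in Sox4cKO CD44minus and 217 and 131 CPM in control CD44minus. The sums hide the direction of most of these genes. In each genotype only 2 of the 13 had a positive log2 fold change of CD44plus over CD44minus. Both were called in Sox4cKO and 1 in control, and 0 of the 13 were called lower in CD44plus. The medians of the 13 were −2.03 in Sox4cKO and −2.24 in control. Col1a1 had 6 to 49 reads in CD44minus, of which background at the summed density would give 37.4% to 90.1%. For the other genes of this list the background is not given here. Lum was at 0 in Sox4cKO CD44plus replicate 2 and control CD44plus replicate 1, and Dcn in Sox4cKO CD44minus replicate 2.

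Between genotypes in CD44plus, 57 of the 79 genes had a negative log2 fold change and none was called. Positive ones made up 27.8% of the 79, against 49.9% of all genes tested. The median was −0.21, against −0.00052 for all genes tested. All 16 hedgehog genes were among the negative ones, with a median of −0.57 and none called. Ptch1 had a log2 fold change of −0.26 (SE 0.51) and the other named hedgehog genes Cdon, Disp1 and Sufu had −0.39, −0.05 and −0.11, all within 1 SE of 0. These genes have the highest mean CPM of the 16 and lie nearer 0 than the median. Disp2 and Smo, named after their values were seen, averaged 13.5 and 13.3 CPM in Sox4cKO CD44plus. In control CD44plus they averaged 32.6 and 28.3 CPM. Many of the other hedgehog genes averaged only a few CPM, and the part of background in them was not tested.

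Over the 8 libraries, the genes whose log2 CPM was most like that of each member, among 10899 genes with a mean of at least 10 CPM, were Slc44a2 and Prnp for Tgfb1 (Pearson r = 0.994 and 0.992), Cdk19 and Prkacb for Tgfbr1 (0.997 and 0.995), and Flna and Cnn2 for Tgfbr2 (0.998 and 0.997). They were Aldh1a1 and Slc2a7 for Smad6 (0.990 and 0.986), Atxn1 and Plekhg2 for Smad7 (0.991 and 0.991), Gpsm2 and Coq7 for Bmpr1a (0.995 and 0.994), and Mfsd2a and Cyp2j6 for Ihh (0.990 and 0.990). For the Id genes they were Arhgef18 and Slc4a4 for Id1 (0.997 and 0.996), Pacs2 and Tmem129 for Id2 (0.995 and 0.994), and Ptprf and Mast2 for Id3 (0.994 and 0.990). Between members r was 0.967 for Id1 and Id3 and −0.968 for Smad6 and Tgfb1. The libraries share gate, animal and the scaling of Sox4cKO CD44minus replicate 2, so these values describe these 8 libraries only.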

How the data were processed

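The authors deposited raw counts of reads per gene, 1 table per library, ending with the summary lines that HTSeq writes. HTSeq 0.6.1p1, STAR 2.2.5b, Trimmomatic 0.36, bcl2fastq 2.17.4 and the build mm10 are named in the submitters' processing notes with no settings. The labels' protocols give a stranded total RNA kit for low input. Summary lines were left out of library sizes. Of uniquely placed reads, 64.6% to 79.3% were assigned to no gene in the CD44plus libraries. In CD44minus the share was 76.8% in Sox4cKO replicate 2 and 92.0% to 96.6% in the other libraries, so it runs along with the gate. Gene counts were 886194 to 13238050 per library. Where a gene has no read, a level below 3 counts cannot be told from 0, which is 0.227 to 3.39 CPM of library totals and covers counting error only.

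Counts were fitted in R 4.3.3 with edgeR 4.0.16 (quasi-likelihood test, two-sided, all 8 libraries in 4 groups, filterByExpr with a minimum count of 10, TMM factors, Benjamini-Hochberg over 20427 genes, threshold 0.05). SE is the absolute log2 fold change divided by the root of F. On simulated counts the fit recovered the changed genes when the spread was low, but called few of them at the common spread of all 8 libraries. Alternatives used limma 3.58.1 and DESeq2 1.42.0, other scalings, no filter, fewer libraries and subtraction of background. Background on a gene was predicted from the reads per kilobase of coding sequence over 1434 olfactory and vomeronasal receptor genes. That density was multiplied by the exon length of the gene in GENCODE vM21 (GRCm38), to which 98.55% of symbols matched. Coding length and exon length differ in kind, so the prediction can run too high. Table names carry an animal number that pairs the gates within a genotype. Deviations from group means correlated between gates at 0.526 in Sox4cKO and 0.103 in control. With 2 animals per genotype, p-values rest on the spread between few samples.

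The 10 genes, the wider list and the marker lists were chosen with earlier results of these data known. The text names all 10, every gene of the wider list past the threshold and otherwise up to 4 per role with the highest mean CPM. Genes most like a member are the 2 with the highest Pearson r of log2 CPM. Promoters of 8 members were matched in RefSeq and 5 are shown.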

Additional observations from a re-analysis of the deposited data

How the results depend on the processing

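Of 820 log2 fold changes of the members under alternative settings, 689 kept their direction and their side of the threshold, 62 passed it newly, 9 no longer passed it and 60 changed sign. The number of members called between gates in Sox4cKO, 1 in the joint edgeR fit, was 2 with library totals, 4 with DESeq2, 3 with the replicate block in limma-voom, 2 with the block in edgeR, 0 in the 4 libraries alone, 3 with background subtracted by the summed density over coding sequence, and 0 to 8 without 1 library. In control it was 2 with DESeq2 size factors, library totals, no filter, DESeq2, either block and background subtracted by the median density, 7 in the 4 libraries alone, 3 with the summed density, and 0 to 7 without 1 library. Of the 79 wider genes, 0 were called in Sox4cKO, against 1 with DESeq2 size factors, 4 with library totals, 5 with DESeq2, 2 and 3 with the blocks in limma-voom and edgeR, 3 with the summed density and 0 to 35 without 1 library. In control 1 was called, against 4 with library totals, 9 with DESeq2, 9 and 11 with the blocks, 42 in the 4 libraries alone, 5 with the summed density and 0 to 22 without 1 library. These counts move with all genes: the share called in control was 2.46% in the joint fit, against 10.2% with library totals, 10.8% with DESeq2, 10.7% and 17.9% with the blocks and 54.9% in the 4 libraries alone, and in Sox4cKO 2.59%, against 9.98%, 8.64%, 5.41%, 8.38% and 0%. Without 1 library, the counts between genotypes in CD44minus were 0 to 8 members and 0 to 33 wider genes, and for the difference between gates 0 to 2 and 0 to 1. A fit without 1 library leaves 1 library in a group, so calls that compare this group do not measure its spread. The summed density was chosen after seeing the data. Over all genes, between gates, DESeq2 called 1765 in Sox4cKO and 2199 in control, the limma-voom block 1105 and 2176, and the edgeR block 1712 and 3659, against 529 and 502 in the joint edgeR fit.

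Signs changed for Sox4cKO over control in CD44plus with library totals for Id2 (−0.015) and with the limma-voom block for Id1 (0.059). In CD44minus they changed with library totals for Id2 (−0.092), Ihh (−0.034) and Smad6 (−0.43), with the summed density for Id2 (−0.038) and Smad6 (−0.44), and in the 4 libraries alone for Smad6 (−0.21). Between gates in control Id3 changed sign with DESeq2 size factors (−0.073), library totals (−0.25), DESeq2 (−0.067) and the summed density (−0.16). The difference between gates changed sign with library totals for Id2 (0.077), Smad6 (0.17), Smad7 (0.25), Tgfbr2 (0.026) and Ihh (0.35), with the summed density for Id2 (0.095), Smad6 (0.26), Smad7 (0.28) and Ihh (0.37), and with the replicate block for Ihh (0.27 in limma-voom, 0.065 in edgeR). The cause was not tested.

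Leaving out 1 library gave a change of sign within these ranges of log2 fold change. Between genotypes in CD44plus they were −0.30 to 0.34 for Id1, −0.35 to 0.35 for Id2, −0.40 to 0.044 for Bmpr1a, −1.17 to 0.35 for Smad6, −0.17 to 0.75 for Smad7, −0.38 to 0.65 for Tgfbr1 and −0.090 to 0.71 for Tgfbr2. In CD44minus they were −0.65 to 2.15 for Id1, −0.98 to 1.61 for Id2, −0.71 to 2.08 for Id3, −0.44 to 1.52 for Bmpr1a, −0.57 to 0.68 for Smad6, −0.76 to 1.61 for Smad7, −2.02 to 0.20 for Tgfb1 and −1.03 to 1.68 for Ihh. Between gates in Sox4cKO they were −2.26 to 0.47 for Id1, −0.019 to 2.37 for Id2, −2.32 to 0.50 for Id3, −0.44 to 1.55 for Bmpr1a and −1.78 to 0.60 for Smad7, and in control −0.67 to 0.70 for Id1 and −0.25 to 0.97 for Id3. For the difference between gates they were −2.17 to 0.63 for Id1, −1.49 to 1.10 for Id2, −2.51 to 0.29 for Id3, −1.67 to 0.30 for Bmpr1a, −1.08 to 0.36 for Smad6, −1.17 to 1.20 for Smad7, −0.91 to 0.16 for Tgfbr2 and −1.26 to 1.44 for Ihh. The replicate block changed no call between genotypes. Depth limits the CD44minus values: Tgfb1 had 9 to 26 reads in each of those 4 libraries.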
